A study of Mus musculus with 30 samples.

Results

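Glomeruli of 16-week-old diabetic and non-diabetic mice were compared across all genes of a transcriptome array: 4 female BTBR ob/ob mice against 4 female BTBR wild-type (WT) mice, 8 of the 30 arrays of the series. The 8 arrays were chosen by their titles, which give genotype and age. The other 22 arrays hold the same genotypes at 4, 8 and 24 weeks and were used for the spread of each gene and for comparison with younger animals. Both groups share the inbred BTBR background, and the ob/ob mice carry 2 copies of the ob allele of the leptin gene. Each array held the RNA of 1 animal, from kidneys passed through steel sieves so that glomeruli were retained.

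Leptin is the fat cell hormone that limits food intake, and animals without it overeat and become obese. On the BTBR background leptin deficiency also brings severe diabetes, and these mice are widely used as a model of diabetic kidney disease. The glomerulus is a capillary tuft of endothelial cells, mesangial cells and podocytes inside a capsule of parietal epithelium. The proximal tubule that follows it reabsorbs sugar, amino acids and filtered protein, makes glucose, and secretes organic anions. The ob allele is a premature stop, so the array cannot show it. The leptin gene, Lep, lay between 4.88 and 5.45 in all 8 arrays, near background, and its difference was 0.20 ± 0.15. The receptor gene Lepr read 7.16, 7.25, 6.50 and 7.02 in ob/ob replicates 1 to 4 and 7.66, 7.0, 7.62 and 7.63 in wild type. The groups overlapped through wild-type replicate 2, and the difference was -0.50 ± 0.18 (adjusted p 0.197).

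All values are log2 array signals as deposited. They reach 19.93, and 1.32% lie above 16, the limit of scanner counts on this scale. Some step not described in the sources used here thus stretched the upper end, and a difference of 1 unit is not read as a doubling. Differences are ob/ob minus wild type with their standard error after ±, from a model fitted to all 30 arrays. A gene is called when its p, adjusted by the Benjamini-Hochberg method over the 24099 genes tested, is under 0.05.

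The labelled tissue was checked against marker genes, and each array held tubule RNA beside glomerular RNA. Of the podocyte marker genes, Nphs1 (nephrin, of the filtration slit) and Wt1 (a podocyte transcription factor) were measured in every array. Slc34a1, the phosphate transporter of the proximal tubule, lay between 18.79 and 19.45, near the top of the scale, and Umod, made in the loop of Henle, between 17.90 and 19.60. Transcripts of the tubule are therefore part of what was compared. In a tissue homogenate, fewer cells of a type and less RNA per cell cannot be told apart.

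Some of the 8 arrays stood apart from others of their group in ways that genotype does not give, which bears on every result here. The mean of 29 podocyte markers was 11.88 in wild-type replicate 2 and 10.32 to 10.86 in the other 3 wild-type arrays, with 10.59 to 11.13 in ob/ob. Collecting duct markers were low in that wild-type array, at a mean of 9.80 against 11.13 to 11.69. Endothelial markers were highest in ob/ob replicate 4 at 11.86 and in wild-type replicate 2 at 11.69, and lay between 10.50 and 10.96 in the rest. Genes of the liver such as Alb, for albumin, read 15.43, 12.86 and 13.39 in wild-type replicates 1, 3 and 4, and 9.35 in wild-type replicate 2, with 8.39 to 10.51 in ob/ob. The chance that an exon control was brighter than an intron control, a measure of array quality, was 0.832 to 0.873 in the 8 arrays. The median of the intron controls was 5.838 to 6.347, and gene values about or below this level are near background.

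The arrays also differed in clock phase. The circadian clock is a daily loop in which Arntl and Npas2 encode activators and Nr1d1 and Dbp are among the genes they drive, so that Arntl is low when Dbp is high. Dbp read 11.29, 12.57 and 11.39 in wild-type replicates 1, 3 and 4, but 6.71 in wild-type replicate 2. In ob/ob it read 7.63, 9.99, 6.13 and 6.22 in replicates 1 to 4. Arntl ran the other way, at 6.90, 6.62 and 6.58 in wild-type replicates 1, 3 and 4, at 11.23 in wild-type replicate 2, and at 9.92, 7.20, 10.88 and 10.62 in ob/ob. Npas2 followed Arntl, with 6.95, 10.83, 6.80 and 6.57 in wild type and 8.24, 7.07, 10.84 and 10.14 in ob/ob. Thus 3 wild-type arrays and ob/ob replicate 2 shared the state of high Dbp and low Arntl, and wild-type replicate 2 shared the opposite state with ob/ob replicates 3 and 4. In the 22 arrays of the other ages Dbp never passed 7.29 and Arntl never fell below 9.81, so the state of high Dbp and low Arntl was met only at 16 weeks among these arrays. The time of day of tissue collection is not given in the sources used here.

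**Figure D1:**
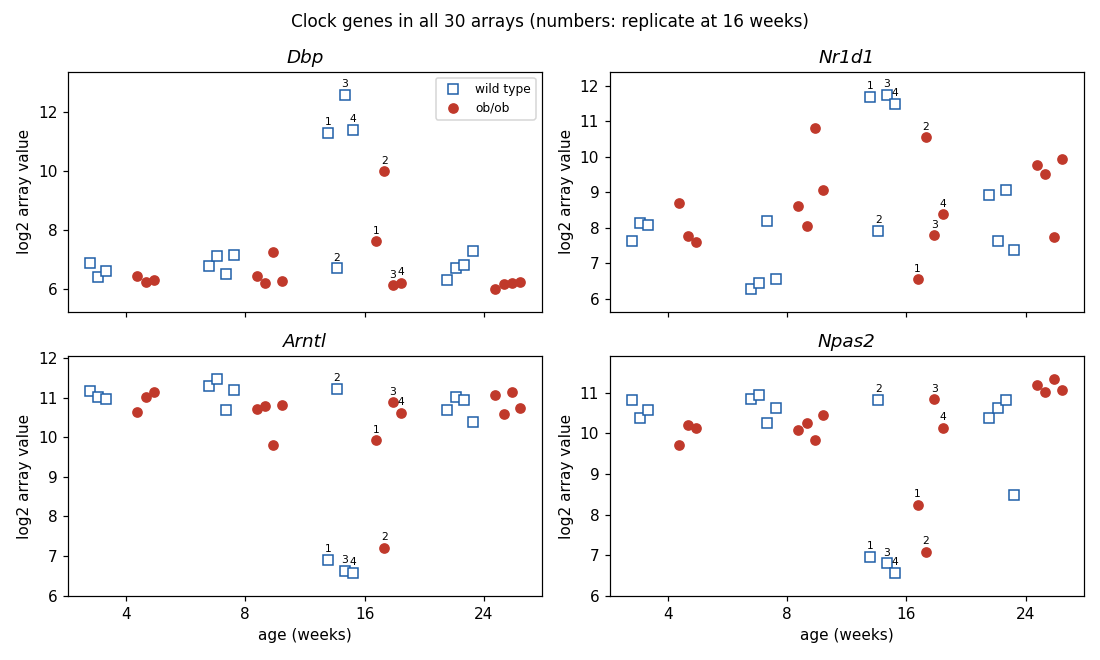
Log2 array values of Dbp, Nr1d1, Arntl and Npas2 (vertical axes) against age in weeks for all 30 arrays, open squares for wild type and filled circles for ob/ob, with replicate numbers printed at 16 weeks. At 16 weeks wild-type replicates 1, 3 and 4 and ob/ob replicate 2 have Dbp from 9.99 to 12.57 and Arntl from 6.58 to 7.20, away from every array of the other ages.

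Of the clock list, 15 members were tested, and Dbp alone was called, lower in ob/ob by 3.00 ± 0.79 (adjusted p 0.0416), with overlapping groups. Leaving out any of ob/ob replicates 1, 3 and 4 or wild-type replicates 1, 3 and 4 ended that call, with an adjusted p of up to 0.205. Arntl differed by 1.82 ± 0.71 (adjusted p 0.233), Npas2 by 1.28 ± 0.72 (adjusted p 0.474), Nr1d1 by -2.39 ± 0.79 (adjusted p 0.132) and Per3, a clock repressor, by -1.35 ± 0.39 (adjusted p 0.0675). Per3 read 6.81, 7.18, 5.64 and 5.80 in ob/ob and 8.16, 5.87, 8.45 and 8.33 in wild type, so it sorted the arrays as Dbp did. Since these genes sorted the arrays across genotypes, a fit with the Arntl minus Dbp value of each array as a covariate was added after the data had been seen. It is called the clock-adjusted fit from here on. The clock states were split unevenly between the genotypes, so this fit cannot fully part clock from genotype. A call lost in it need not mean a smaller difference. Pck1 and Ccn1 lost theirs at 1.562 and 1.853, against 1.515 and 1.765 without the covariate. Kap lost its call at -2.586, against -4.05. The start regions of Arntl and Per3 are shown because both hold a sequence named for clock regulators, in capitals. The element bound by the ROR and REV-ERB receptors, searched on both strands as A, any 2 bases, T, any base and GGTCA, was found in 2.46% of 32851 mouse start windows of the same length. It begins 28 bases into the Arntl transcript. The D-box, bound by DBP and its relatives and searched as TTATGTAA on both strands, was found in 0.938% of windows, and it occurs 205 and 158 bases before the start of Per3. Sequences here are RefSeq windows of build GRCm38.p6, of 300 bases each around a transcript start, and a match is a description of letters.
Arntl (chr7:113207261-113207560, plus strand): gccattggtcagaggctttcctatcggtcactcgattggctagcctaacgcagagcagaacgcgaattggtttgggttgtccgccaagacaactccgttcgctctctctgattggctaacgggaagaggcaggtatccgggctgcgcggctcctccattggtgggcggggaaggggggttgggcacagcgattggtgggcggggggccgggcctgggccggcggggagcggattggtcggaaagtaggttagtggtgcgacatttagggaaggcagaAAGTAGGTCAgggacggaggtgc
Per3 (chr4:151044616-151044915, minus strand): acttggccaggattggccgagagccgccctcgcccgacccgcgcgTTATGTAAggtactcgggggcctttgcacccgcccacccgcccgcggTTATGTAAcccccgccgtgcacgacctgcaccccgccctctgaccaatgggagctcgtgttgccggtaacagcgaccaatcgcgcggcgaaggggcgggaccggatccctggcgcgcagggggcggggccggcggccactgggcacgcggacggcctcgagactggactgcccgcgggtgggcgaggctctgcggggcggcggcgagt

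Across all genes, 542 of 24099 (2.25%) were called: 220 higher in ob/ob (0.913%) and 322 lower (1.34%). The median difference over all genes was -0.006. Counts in the gene lists below are to be read beside the shares of 0.913% higher and 1.34% lower. In 192 of the higher and 257 of the lower genes the 4 arrays of each genotype did not overlap, against 751 higher (3.12%) and 787 lower (3.27%) among all genes tested. The count depended on how spread was estimated and on single arrays. With the 8 arrays of 16 weeks alone 65 genes (0.27%) were called, 61 of them among the 542. Without ob/ob replicate 4 the count was 243, without replicate 3 of ob/ob or wild-type replicate 3 it was 271, without wild-type replicate 4 it was 281, and without wild-type replicate 2 it was 842. In the clock-adjusted fit 204 genes (0.847%) were called, 120 higher and 84 lower, and 159 of the 542 kept their call. A covariate for podocyte against proximal tubule signal, also added after the data had been seen, gave 814 calls that held all 542. Over the 21 alternatives run, 33 genes were called in every fit in which they were tested, 17 higher and 16 lower. At the other ages 1 gene was called at 4 weeks, 407 at 8 weeks and 6247 at 24 weeks, of the same 24099.

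The 12 largest rises among genes with separate groups were Cdkn1a, Slc5a10, Aldh1a7, Clca3a1, Angptl4, Agt, Ppp1r3a, Apob, Slc25a25, Zbtb16, Grem1 and Ccn2, and, among the falls, Kap, Hdc, Slc22a19, Slc22a22, Clec2h, Slc22a29, Wfdc15b, Gpx6, Slc22a28, Slc22a27, Scd1 and Lpl. Zbtb16, for the transcription factor PLZF, read 9.90, 9.78, 9.61 and 10.18 in ob/ob and 8.05, 6.17, 6.57 and 8.36 in wild type, and rose by 2.58 ± 0.46 (adjusted p 0.00263). The rises ranged from 2.47 to 3.96 and the falls from -2.14 to -4.05. Of the 12 rises, 10 were also called in the clock-adjusted fit and 7 in the fit of the 8 arrays alone. Of the 12 falls, 6 and 4 were.

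**Figure D2:**
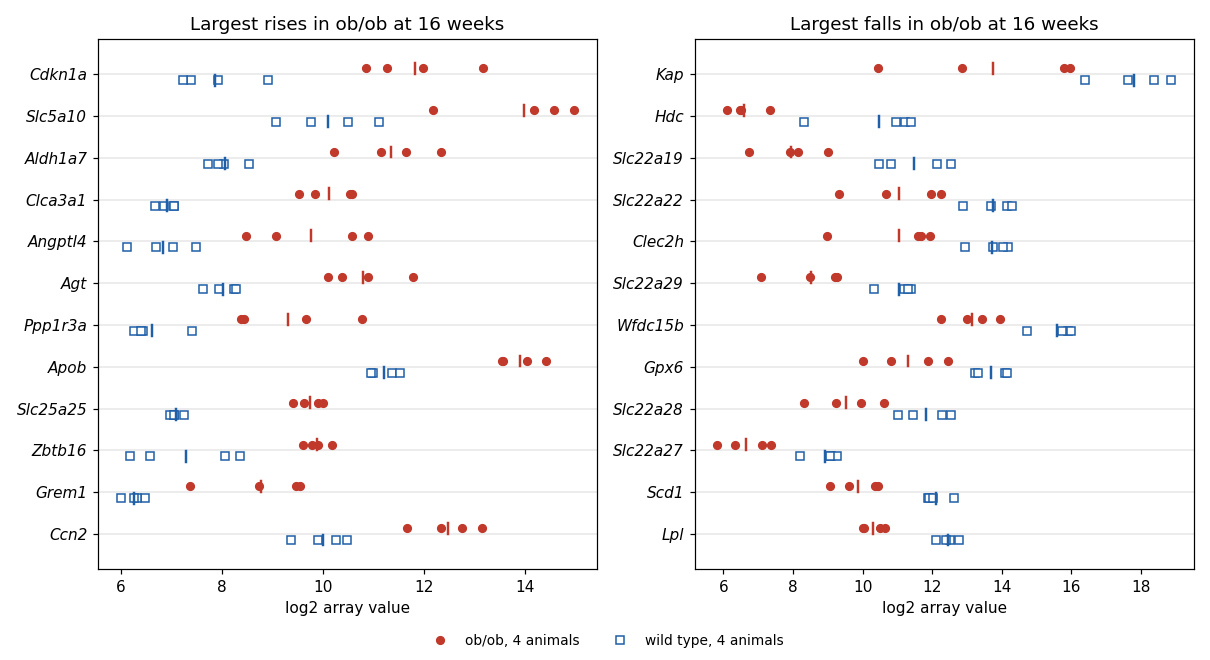
Log2 array values (horizontal axis) of the 12 genes with the largest rises (left) and the 12 with the largest falls (right) in ob/ob at 16 weeks; filled circles are ob/ob animals, open squares wild-type animals, and vertical ticks group means. The groups do not overlap for any of the 24 genes, which is how they were chosen, and Kap is the most spread, from 10.44 to 15.96 in ob/ob.

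The largest rise was that of Cdkn1a, which encodes p21, an inhibitor of cyclin-dependent kinases that halts the cell cycle and is the best known target of the tumour suppressor p53. It read 11.26, 10.85, 11.98 and 13.16 in ob/ob replicates 1 to 4, and 7.39, 8.91, 7.22 and 7.91 in wild type. Every ob/ob array lay above every wild-type array, with wild-type replicate 2 closest to the ob/ob group. The difference was 3.96 ± 0.55 (adjusted p 0.000232), and 3.14 in the clock-adjusted fit (adjusted p 0.00898). The call was kept in each of the 21 alternatives, with 3.51 to 4.31 over the fits that left out 1 array. At 4, 8 and 24 weeks the difference was 1.68, 0.97 and 2.44, with adjusted p values of 0.993, 0.545 and 0.00273.

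Among 26 tested p53 targets and arrest genes 4 rose and none fell, against 0.913% higher and 1.34% lower over all genes. Their median difference was 0.16 against -0.006 over all genes. Ccng1, for cyclin G1, read 14.23, 15.47, 14.33 and 14.80 in ob/ob and 13.37, 13.33, 13.82 and 13.56 in wild type, and rose by 1.19 ± 0.25 (adjusted p 0.00888). Eda2r, of the tumour necrosis factor receptor family, read 5.73, 6.34, 6.05 and 6.24 against 5.32, 5.35, 5.31 and 5.24, and rose by 0.79 ± 0.11 (adjusted p 0.00029). The groups were separate for both, although Eda2r lies near background. Zmat3, for a p53-induced RNA-binding protein, rose by 0.40 ± 0.09 (adjusted p 0.00954), and without ob/ob replicate 4 its adjusted p was 0.0552. Mdm2, for the ligase that degrades p53, differed by 0.48 ± 0.15 (adjusted p 0.113). All 4 risen genes were also called in the clock-adjusted fit. In the fit of the 8 arrays alone Cdkn1a was called, and Ccng1, Eda2r and Zmat3 were not (adjusted p 0.12, 0.0571 and 0.15). Cell division genes were tested beside them: of 22, none was called, and their differences ran from -0.32 to 0.26.

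Of 2 start windows listed for Cdkn1a, 1 is shown because it holds a pair of CATG cores spaced as in a p53 element, in capitals. The pair begins 48 bases before the start. Searched as CATG, any 6 bases and CATG, which reads the same on both strands, it was found in 0.712% of all windows.
Cdkn1a (chr17:29090729-29091028, plus strand): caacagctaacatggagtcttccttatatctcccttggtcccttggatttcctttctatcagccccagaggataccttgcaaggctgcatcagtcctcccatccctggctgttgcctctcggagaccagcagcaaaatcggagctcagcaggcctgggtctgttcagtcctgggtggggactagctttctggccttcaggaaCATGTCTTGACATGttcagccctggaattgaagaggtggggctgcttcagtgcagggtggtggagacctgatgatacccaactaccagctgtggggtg

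Among secreted genes of matrix signalling, Ccn2, Ccn1 and Grem1 rose. Ccn2 encodes connective tissue growth factor and Ccn1 its relative, secreted matrix proteins driven by the YAP and TEAD factors. Ccn2 read 11.66, 12.33, 12.74 and 13.14 in ob/ob and 9.35, 10.26, 9.89 and 10.46 in wild type, with separate groups. It rose by 2.47 ± 0.56 (adjusted p 0.0166), but the adjusted p passed 0.05 without ob/ob replicate 3 or 4 or wild-type replicate 1 or 3, reaching 0.0773, and was 0.15 in the clock-adjusted fit. Ccn1 read 12.29, 12.39, 11.45 and 12.89 against 10.48, 10.34, 10.62 and 10.51, and rose by 1.77 ± 0.39 (adjusted p 0.0139), with 0.0742 without ob/ob replicate 4 and 0.0639 in the clock-adjusted fit. Of 18 YAP and TEAD targets these were the 2 called, and the list median was 0.355. Ankrd1, another well-known target, differed by 1.405 ± 0.46 (adjusted p 0.12), with separate groups.

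Grem1 encodes gremlin, a secreted antagonist of bone morphogenetic proteins. It read 7.36, 9.53, 8.73 and 9.47 in ob/ob and 6.47, 5.99, 6.31 and 6.26 in wild type. Replicate 1 was the lowest of the ob/ob group and still above all wild-type arrays. The rise was 2.51 ± 0.53 (adjusted p 0.00951), with 0.0502 without ob/ob replicate 4. Adm, for the vasodilator peptide adrenomedullin, read 11.18, 12.43, 12.41 and 12.44 against 8.77, 10.60, 9.54 and 9.74, and rose by 2.45 ± 0.59 (adjusted p 0.0229). That call ended in 6 of the 8 fits that left out 1 array (highest adjusted p 0.0881, without wild-type replicate 1) and in the clock-adjusted fit (adjusted p 0.243). Adm was not higher in ob/ob at 24 weeks, at -1.37 (adjusted p 0.0863).

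Collagens moved in both directions, as 2 of 32 fibrosis and interstitial matrix genes rose and 2 fell, with a list median of -0.08. Col5a2, for a chain of fibrillar collagen V, read 6.37, 6.26, 6.24 and 6.4 in ob/ob and 7.55, 7.23, 7.37 and 7.34 in wild type. Both groups were tight and far apart, and the fall was -1.06 ± 0.15 (adjusted p 0.000314), called in all alternatives. Col15a1, for a collagen at the edge of basement membranes, fell too, by 0.94 on the log2 scale (adjusted p 0.00368). Col8a1, of vessel walls, rose by 1.10 ± 0.24 (adjusted p 0.0122), a call that ended without ob/ob replicate 3 or 4 or wild-type replicate 3 (highest adjusted p 0.0761) and in the clock-adjusted fit (0.143). Eln, for elastin, rose by 0.45 ± 0.12 (adjusted p 0.0478) and lost its call in 6 of the 8 fits that left out 1 array, all but those without replicate 1 of ob/ob or wild-type replicate 2 (highest adjusted p 0.193). In the basement membrane list 1 of 20 genes rose and 1 fell. Col4a2, which with Col4a1 makes the common form of collagen IV, read 10.17, 10.81, 11.09 and 12.74 against 9.75, 10.61, 9.87 and 9.70, so the groups overlapped and ob/ob replicate 4 was far above the rest. Its difference of 1.22 ± 0.33 (adjusted p 0.0494) was 0.71 without that array (adjusted p 0.191), and the call also ended without replicate 3 of ob/ob or wild-type replicate 1, 3 or 4. Col4a1, at 1.07 ± 0.33 (adjusted p 0.0919), and Col4a3, of the podocyte form, at 0.42 ± 0.25 (adjusted p 0.512), were not called. Lama4, for a laminin chain of vessels, fell by 0.39 on the log2 scale (adjusted p 0.0266), and lost its call in 5 of the 8 fits that left out 1 array (ob/ob replicates 1 and 3, wild-type replicates 2, 3 and 4), with a highest adjusted p of 0.124. Eln, Col4a2 and Lama4 were not called in the clock-adjusted fit either (adjusted p 0.314, 0.465 and 0.0978).

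Mesangial and smooth muscle markers are given beside these genes. Of 16, 15 had positive differences, the median was 0.54, and 1 was called: Cspg4, the pericyte proteoglycan NG2, rose by 0.54 ± 0.12 (adjusted p 0.0184), a call that ended without ob/ob replicate 2 or 4 or wild-type replicate 1 or 4 (highest adjusted p 0.0783) and in the clock-adjusted fit (0.087). The list mean was 9.74, 9.84, 9.86 and 10.66 in ob/ob and 8.99, 10.15, 9.41 and 9.17 in wild type. The groups overlapped through wild-type replicate 2. Whether the share of these cells moved the matrix genes was not tested.

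Among lipid genes, 8 of 36 in the PPAR and fatty acid oxidation list rose and 9 of 20 in the sterol list fell. Over all genes 0.913% were called higher and 1.34% lower. PPARs are nuclear receptors that sense fatty acids and turn on genes for their oxidation and storage. In the PPAR list 1 gene fell, 27 were not called, and the median was 0.26. Of the 9 calls 6 were kept in the clock-adjusted fit and 5 in the 8 arrays alone. Angptl4, a secreted inhibitor of lipoprotein lipase, read 8.47, 10.89, 9.07 and 10.57 in ob/ob and 7.02, 6.12, 6.69 and 7.49 in wild type. The groups were separate, and the rise was 2.92 ± 0.58 (adjusted p 0.0063). Lpl, for lipoprotein lipase itself, went the other way, with 10.65, 10.01, 10.04 and 10.52 against 12.76, 12.12, 12.51 and 12.39. It fell by 2.14 on the log2 scale (SE 0.26, adjusted p 4.35e-05), kept its call in all alternatives, and was lower by a like amount at 8 weeks (-2.05, adjusted p 0.000197) and 24 weeks (-2.36, adjusted p 3.31e-06).

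The other risen members act in fatty acid hydroxylation, hydrolysis and storage. Cyp4a12a, a fatty acid hydroxylase, read 10.27, 9.95, 9.33 and 9.30 in ob/ob and 7.98, 7.37, 8.32 and 8.06 in wild type, and rose by 1.78 ± 0.34 (adjusted p 0.00419). Its difference was -0.01 at 8 weeks. The related Cyp4a14 read 15.00, 15.61, 15.73 and 15.55 against 13.53, 12.48, 13.89 and 13.31, and rose by 2.17 ± 0.55 (adjusted p 0.0323). Cyp4a31 rose by 1.62 ± 0.38 (adjusted p 0.0199), a call that ended without ob/ob replicate 3 or 4 or wild-type replicate 4 (highest adjusted p 0.0794). These 3 genes are close copies of each other, so probes may share signal and the split between them is uncertain. Acot1, an acyl-CoA thioesterase, rose by 1.69 ± 0.39 (adjusted p 0.0195), and Vnn1, the pantetheinase vanin 1, by 1.95 ± 0.51 (adjusted p 0.0396). Plin2, which coats lipid droplets, read 9.94, 10.30, 10.36 and 11.40 against 9.04, 9.05, 9.43 and 9.12, and rose by 1.34 ± 0.27 (adjusted p 0.0071). Pparg, for the receptor PPAR gamma, rose by 0.73 ± 0.20 (adjusted p 0.0478), but 3 of its ob/ob values were 6.87 to 6.92 and replicate 4 was 7.95, and without that array its adjusted p was 0.214; the call also ended without ob/ob replicate 3 or any wild-type array. The call of Cyp4a14 ended without any array but ob/ob replicate 1 (highest adjusted p 0.0983), that of Vnn1 without any but ob/ob replicate 1 or wild-type replicate 3 (0.12), and that of Acot1 without ob/ob replicate 3 or 4 or wild-type replicate 1 or 4 (0.0875). Acot1, Plin2 and Pparg were not called in the clock-adjusted fit (adjusted p 0.175, 0.0529 and 0.234). Pdk4, the kinase that shuts pyruvate dehydrogenase, read 9.79, 11.40, 10.54 and 13.18 against 8.31, 8.87, 8.77 and 8.75; the groups were separate, but the difference of 2.55 ± 0.78 was not called (adjusted p 0.0943).

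The sterol list held calls in 1 direction. Cells make cholesterol from acetyl-CoA in a long chain of enzymes that the factor SREBP2, encoded by Srebf2, turns on when membranes lack sterol. Of 20 tested members 9 fell, 11 were not called and none rose, against 1.34% lower and 0.913% higher over all genes. Negative differences were found in 19, and the median was -0.545 against -0.006 over all genes. Cyp51, the lanosterol demethylase, read 8.50, 9.10, 8.08 and 8.51 in ob/ob and 10.10, 9.99, 10.23 and 10.13 in wild type. The wild-type values were almost level and all above the ob/ob values. It fell by 1.57 on the log2 scale (SE 0.21, adjusted p 0.000166). Insig1, which holds SREBP in the endoplasmic reticulum and is itself an SREBP target, read 9.42, 8.93, 8.71 and 8.30 against 10.21, 10.58, 10.37 and 11.04, and fell by 1.71 on the log2 scale (SE 0.27, adjusted p 0.000887). Both kept their call in all alternatives.

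Along the pathway, Mvk (-0.66 ± 0.11), Idi1 (-0.999 ± 0.24), Fdps (-0.93 ± 0.19), Fdft1 (-0.83 ± 0.20) and Lss (-0.84 ± 0.17), which act from mevalonate to lanosterol, fell. So did Srebf2 (-0.81 ± 0.15) and the sterol carrier Stard4 (-1.05 ± 0.21). In all 9 the 4 ob/ob arrays lay below the 4 wild-type arrays, as they did in 257 of the 322 genes called lower. The entry enzyme Hmgcs1 stood outside the pattern, with 13.12, 14.13, 13.73 and 13.49 in ob/ob and 13.32, 13.48, 13.61 and 13.69 in wild type. Its groups overlapped fully, and the difference was 0.09 ± 0.24 (adjusted p 0.92). Sqle, squalene epoxidase, at -0.31 ± 0.20 (adjusted p 0.567), was not called either. In the clock-adjusted fit 6 of the 9 calls remained, and those of Stard4, Idi1 and Fdft1 did not (adjusted p 0.135, 0.116 and 0.22). Their differences there were -0.781, -0.995 and -0.675, so that of Idi1 hardly changed. In the fit of the 8 arrays alone 3 of the 9 were called, Cyp51, Idi1 and Insig1. Idi1 lost its call without ob/ob replicate 3 or 4 or wild-type replicate 4, and Fdft1 without ob/ob replicate 3 or 4 or wild-type replicate 3 or 4, with adjusted p of at most 0.0933. At 8 weeks Cyp51 differed by -0.88 (adjusted p 0.0302) and Insig1 by -0.88 (adjusted p 0.112).

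**Figure D3:**
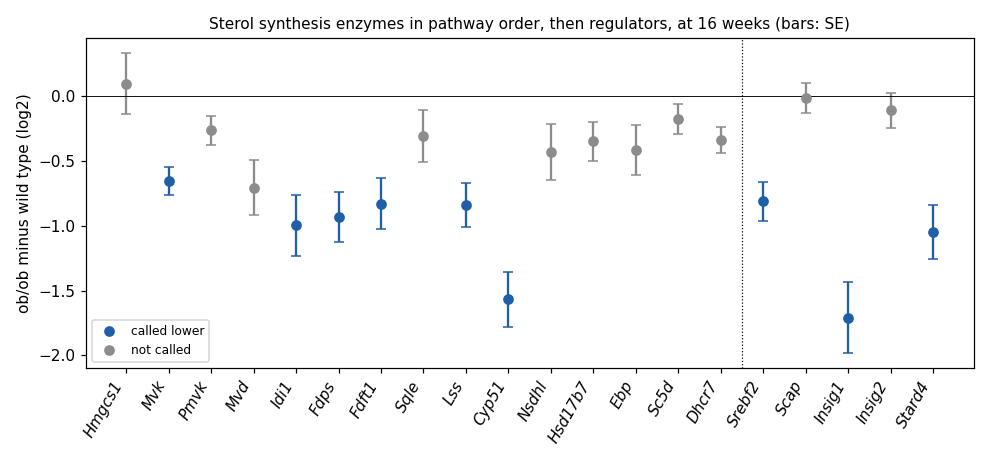
Difference between ob/ob and wild type at 16 weeks (vertical axis, log2) for 20 sterol genes, enzymes in pathway order and then regulators after the dotted line; points are differences and bars their standard errors, blue where called lower and grey where not called. Of the 20 genes 19 lie below 0, Cyp51 and Insig1 lowest, and Hmgcs1 lies at 0.09.

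The start region of Cyp51 is shown as a member of this set, with the CCAAT box, bound by the factor NF-Y that acts beside SREBP2, in capitals. The box, searched as CCAAT on both strands, was found in 15 of the 16 sterol genes that have a window in the table, and in 41.1% of all 27025 genes there. In Cyp51 it begins 29 bases before the start. The sterol element searched as TCACNCCAC was found in 1 of the 16 and in 1.44% of all genes. Only these letters were searched, so a window without a match may still hold another form of the element.
Cyp51 (chr5:4104648-4104947, minus strand): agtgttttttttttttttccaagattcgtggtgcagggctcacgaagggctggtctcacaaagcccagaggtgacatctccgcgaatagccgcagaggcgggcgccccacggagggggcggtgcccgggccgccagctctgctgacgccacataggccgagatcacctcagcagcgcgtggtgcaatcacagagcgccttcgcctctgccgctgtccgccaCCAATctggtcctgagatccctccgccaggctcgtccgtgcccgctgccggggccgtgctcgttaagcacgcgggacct

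Desaturase genes were among those that fell. Of 20 fatty acid and triglyceride synthesis genes 4 fell and 1 rose, with a median of -0.07. Scd1, which puts the first double bond into stearate, read 10.43, 10.36, 9.07 and 9.62 in ob/ob and 11.88, 11.91, 12.04 and 12.63 in wild type, and fell by 2.24 on the log2 scale (SE 0.40, adjusted p 0.00276), in all alternatives. Fads1, a desaturase of polyunsaturated fatty acids, read 12.75, 13.10, 12.77 and 12.45 against 13.55, 13.91, 13.67 and 13.76, and fell by 0.95 on the log2 scale (SE 0.16, adjusted p 0.00198). The groups were separate for both. Fads2 fell by 1.10 on the log2 scale (adjusted p 0.0374) and Acaca, for acetyl-CoA carboxylase, by 0.55 (adjusted p 0.0135), and without ob/ob replicate 4 their adjusted p values were 0.185 and 0.0739. Both calls also ended without replicate 3 of ob/ob or wild-type replicate 4, and that of Fads2 without wild-type replicate 1 or 3 and in the clock-adjusted fit (adjusted p 0.236) too. Lpin1, a phosphatidate phosphatase that also serves as a coactivator of PPAR genes, rose by 1.02 ± 0.27 (adjusted p 0.0425) and kept the call in 1 of the 8 fits that left out 1 array, that without wild-type replicate 4 (highest adjusted p 0.169). Apob, the scaffold protein of lipoprotein particles, read 13.56, 14.41, 14.04 and 13.54 in ob/ob and 10.98, 10.95, 11.36 and 11.51 in wild type. The rise of 2.69 ± 0.41 (adjusted p 0.000516) held in all alternatives, and at 8 weeks it was 2.66 (adjusted p 0.00116).

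In the plasma protein and lipoprotein list, which holds Apob, 7 of 28 genes fell and 2 rose, with a median of -0.42. Alb differed by -3.24 ± 0.86 (adjusted p 0.0426), Ahsg, for fetuin A, by -2.64 ± 0.58 (adjusted p 0.0126), Trf, for transferrin, by -1.62 ± 0.40 (adjusted p 0.0251) and Fgg, a fibrinogen chain, by -1.41 ± 0.34 (adjusted p 0.0245). None of these groups was separate, since wild-type replicate 2 lay within the range of the ob/ob arrays. Wild-type replicate 1 was the highest of the 8 arrays in each, as with Ahsg at 11.46 against 5.87, 8.20 and 8.68 in wild-type replicates 2, 3 and 4. Without wild-type replicate 1 Alb differed by -2.35 (adjusted p 0.172), Ahsg by -1.67, Trf by -1.03 and Fgg by -0.86. The calls of Alb and Fgg ended in 6 of the 8 fits that left out 1 array, all but those without replicate 1 of ob/ob or wild-type replicate 2, that of Trf in 5 (ob/ob replicates 3 and 4, wild-type replicates 1, 3 and 4; highest adjusted p 0.104) and that of Ahsg without ob/ob replicate 3 (adjusted p 0.0501). None of the 4 was called in the clock-adjusted fit or in the fit of the 8 arrays alone. The cause of the high value in that array was not tested. Cp, for the copper protein ceruloplasmin, rose by 1.65 ± 0.30 (adjusted p 0.00356), with ob/ob replicate 4 at 12.99 and the other ob/ob arrays at 11.04 to 11.39, against 9.86 to 10.38 in wild type; it was not called in the clock-adjusted fit (adjusted p 0.059).

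Among sugar handling genes Slc5a10, Pklr and Tkfc rose. Slc5a10 encodes SGLT5, a sodium-coupled carrier of mannose and fructose at the apical face of the proximal tubule. It read 12.18, 14.96, 14.16 and 14.56 in ob/ob and 10.49, 9.06, 11.11 and 9.76 in wild type. All ob/ob arrays were higher, replicate 1 the least. The rise was 3.86 ± 0.50 (adjusted p 0.000101), and 4.44 in the clock-adjusted fit, and it was called at 8 weeks (2.81, adjusted p 0.00409) and 24 weeks (3.08, adjusted p 0.00019) too. Of 24 glucose and fructose genes 3 rose and none fell, with a median of 0.10. Slc5a10, Pklr and Tkfc were all called in the clock-adjusted fit. None was called in the 8 arrays alone (adjusted p 0.0534, 0.0893 and 0.144). Pklr, pyruvate kinase of liver and kidney, read 9.87, 11.14, 11.36 and 11.14 against 9.23, 9.11, 9.66 and 9.32, and rose by 1.55 ± 0.29 (adjusted p 0.00365). Tkfc, triokinase of fructose breakdown, read 12.67, 14.40, 14.34 and 14.05 against 12.23, 12.03, 12.72 and 12.33, and rose by 1.54 ± 0.33 (adjusted p 0.0105), with 0.0534 without ob/ob replicate 3. Replicate 1 of ob/ob overlapped wild type for Tkfc. The glucose carriers were not called at 16 weeks: Slc5a2, for SGLT2, the main route of glucose recovery, differed by -0.01 ± 0.16 (adjusted p 0.986), and Slc2a2, for GLUT2, by 0.74 ± 0.24 (adjusted p 0.126). Slc2a2 was called in the clock-adjusted fit, however, at 1.11 (adjusted p 0.0372). It was also called at 8 weeks (1.47, adjusted p 0.00238) and 24 weeks (0.92, adjusted p 0.00739).

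Of 20 gluconeogenesis and FOXO target genes 2 rose, Ccn2 and Pck1, with a median of 0.20. Pck1, the rate-setting enzyme of gluconeogenesis, read 17.47, 17.84, 17.90 and 17.40 in ob/ob and 15.93, 15.98, 16.05 and 16.58 in wild type, all ob/ob arrays higher. These values lie in the stretched range of the scale. The rise was 1.51 ± 0.36 (adjusted p 0.021); it passed 0.05 without ob/ob replicate 2 or 3 or wild-type replicate 1 or 3 (highest 0.0741) and in the clock-adjusted fit (0.102). G6pc, glucose-6-phosphatase, differed by 0.96 ± 0.30 (adjusted p 0.109). Ppp1r3a, which tethers a phosphatase to glycogen, read 9.67, 8.43, 8.36 and 10.78 against 6.26, 7.39, 6.43 and 6.39, and rose by 2.69 ± 0.53 (adjusted p 0.00512), with 0.102 in the clock-adjusted fit. Slc25a25, a mitochondrial carrier of ATP-Mg and phosphate, read 9.41, 9.996, 9.62 and 9.89 against 7.24, 7.05, 6.97 and 7.05. The groups were far apart, and the rise was 2.65 ± 0.31 (adjusted p 3.34e-05), called in all alternatives.

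In the glycolysis and hypoxia list 5 of 30 genes rose and 1 fell, with a median of 0.07. Of the 6 calls Ndrg1 and Pdk1 were kept in the clock-adjusted fit and none in the 8 arrays alone. Besides Adm they were Ndrg1 (1.15 ± 0.20, adjusted p 0.00224), a stress gene of the kidney, Egln3 (1.12 ± 0.28, adjusted p 0.029), an oxygen sensor, Pdk1 (0.73 ± 0.13, adjusted p 0.00328), a pyruvate dehydrogenase kinase, and P4ha2 (0.60 ± 0.14, adjusted p 0.022), for collagen hydroxylation. Ndrg1 read 18.28, 17.88, 18.65 and 18.31 against 16.68, 18.13, 16.65 and 17.06, so wild-type replicate 2 lay inside the ob/ob range. Its clock-adjusted difference was 0.58 (adjusted p 0.0107), below the unadjusted one by more than 1.5 times. Pfkm, a phosphofructokinase, fell by 0.61 on the log2 scale (adjusted p 0.0244), with 0.134 without wild-type replicate 3, and its call also ended without ob/ob replicate 1, 3 or 4 or wild-type replicate 4. Egln3 lost its call without ob/ob replicate 2, 3 or 4 or wild-type replicate 1 or 4 (highest adjusted p 0.111), and P4ha2 without ob/ob replicate 2 or 4 or wild-type replicate 1 or 3 (highest adjusted p 0.0983).

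The gene that makes active vitamin D rose, though with overlapping groups. Cyp27b1, the 1-alpha-hydroxylase of the proximal tubule, read 12.07, 14.04, 11.49 and 8.26 in ob/ob and 8.89, 6.72, 7.51 and 7.41 in wild type. Replicate 4 of ob/ob fell below wild-type replicate 1. The rise was 3.83 ± 0.80 (adjusted p 0.00853), from 2.98 to 4.90 over the fits that left out 1 array, and 4.88 in the clock-adjusted fit (adjusted p 0.007). Cyp24a1, which breaks vitamin D down, was highest in ob/ob replicate 4, where Cyp27b1 was the lowest of the ob/ob group: it read 10.22, 12.27, 11.61 and 14.27 against 8.82, 10.26, 10.21 and 10.21, a difference of 2.21 ± 0.83 (adjusted p 0.202). Vdr, the receptor, differed by 0.69 ± 0.21 (adjusted p 0.0943). Of 24 members of the vitamin D, calcium and phosphate list 2 rose and 2 fell, and the median was -0.08. The other rise was Slc20a1, a phosphate carrier (0.69 ± 0.18, adjusted p 0.0391), with 0.171 without ob/ob replicate 4; its call also ended without replicate 3 of ob/ob or wild-type replicate 1, 3 or 4, and in the clock-adjusted fit (0.272). The falls were Casr and Cldn16 of the loop of Henle, described with that segment.

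Angiotensinogen rose, and the peptidase genes Ace and Mme fell. Agt encodes angiotensinogen, the precursor of angiotensin II, which in the kidney is made mainly by the proximal tubule. It read 10.09, 10.89, 10.38 and 11.78 in ob/ob and 8.23, 7.63, 8.28 and 7.95 in wild type. The groups were well apart, and the rise of 2.76 ± 0.36 (adjusted p 9.34e-05) was called in all alternatives, with 2.14 at 8 weeks (adjusted p 0.00244) and 2.60 at 24 weeks (adjusted p 3.9e-05). Ace, the converting enzyme, read 8.62, 8.62, 7.32 and 8.23 against 9.32, 9.19, 10.18 and 9.33, and fell by 1.30 on the log2 scale (SE 0.28, adjusted p 0.0113). Mme, for neprilysin, a brush border peptidase that degrades angiotensin and natriuretic peptides, read 12.88, 12.64, 11.94 and 11.76 against 13.35, 13.43, 13.59 and 13.66, and fell by 1.20 on the log2 scale (SE 0.25, adjusted p 0.00885). Ace lost its call without replicate 3 of ob/ob or wild-type replicate 3 (highest adjusted p 0.068), Mme without ob/ob replicate 4 (0.0552), and both in the clock-adjusted fit (0.228 and 0.131). Of 25 genes of the list 2 rose, Agt and Adm, and 2 fell, Ace and Mme, with a median of 0.03. Of the 4 calls Agt alone was kept in the clock-adjusted fit. Other angiotensin-cleaving peptidases were not called, Enpep at -0.36 (adjusted p 0.713) and Anpep at 0.33 (adjusted p 0.46). The receptor gene Agtr1a differed by 0.54 ± 0.18 (adjusted p 0.147).

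A group of organic anion transporters of the Slc22a family fell. These carriers move drugs, urate, steroid conjugates and other anions across proximal tubule membranes. Of 31 organic ion and drug transport genes 9 fell and none rose, against 1.34% lower and 0.913% higher over all genes. The list median was -0.17, and all 9 that fell belong to the Slc22a family. Of the 9 calls 5 were kept in the clock-adjusted fit. In the 8 arrays alone 2 were, Slc22a26 and Slc22a27. The other 22 were not called, Slc22a12, the urate carrier URAT1, among them (0.19, adjusted p 0.904). Slc22a19 had the largest fall of them. It read 8.15, 8.99, 6.74 and 7.92 in ob/ob and 12.13, 10.46, 12.55 and 10.83 in wild type, with separate groups. It fell by 3.54 on the log2 scale (SE 0.51, adjusted p 0.000284), with -2.62 in the clock-adjusted fit (adjusted p 0.0107). The difference was of a like size at 8 weeks (-3.40, adjusted p 0.000847) and 24 weeks (-3.78, adjusted p 3.74e-05).

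On chromosome 19, 6 of these genes are direct neighbours in the order Slc22a19, Slc22a26, Slc22a27, Slc22a28, Slc22a29 and Slc22a30, and all 6 fell. Slc22a26 fell by 2.10 on the log2 scale (SE 0.35, adjusted p 0.00161), Slc22a27 by 2.26 (SE 0.33, adjusted p 0.000312) and Slc22a29 by 2.54 (SE 0.40, adjusted p 0.000839). Slc22a28 read 9.95, 10.60, 9.22 and 8.33 against 12.53, 11.03, 12.29 and 11.45, and fell by 2.30 (SE 0.52, adjusted p 0.0166). Slc22a30 read 9.01, 9.68, 8.32 and 7.66 against 11.22, 9.85, 10.98 and 10.11, and fell by 1.87 (SE 0.45, adjusted p 0.0238). In both, wild-type replicate 2 and ob/ob replicate 2 nearly met. The next coding genes along, Slc22a8 and Slc22a6, which encode the main anion carriers OAT3 and OAT1, differed by -0.56 ± 0.23 (adjusted p 0.264) and 0.43 ± 0.34 (adjusted p 0.671). Slc22a28 and Slc22a30 lost their calls in the clock-adjusted fit (adjusted p 0.236 and 0.302) and without ob/ob replicate 3 or 4 or wild-type replicate 1 or 3.

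**Figure D4:**
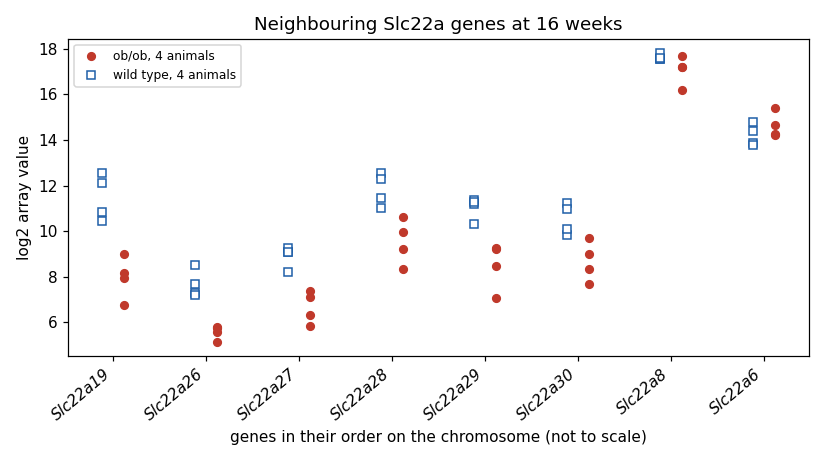
Log2 array values (vertical axis) of 8 neighbouring Slc22a genes in their order on the chromosome, filled circles for the 4 ob/ob animals and open squares for the 4 wild-type animals at 16 weeks. The first 6 genes are lower in ob/ob with separate groups, and Slc22a8 and Slc22a6 are not called.

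The start regions of Slc22a28 and Slc22a30 are shown because they are near copies, identical in 288 of 306 aligned positions (94.1%), while other pairs among the 6 neighbours shared 43.2% to 68.0%. Near-identical genes can share probe signal, so the values of this pair may not be independent. The identity is that of the start windows, and the transcripts were not compared. In capitals is a shortened steroid hormone receptor element, searched on both strands as ACA, any 3 bases, TGT, any base and C, which lies 169 bases before the start of Slc22a28 and 175 bases before that of Slc22a30. It was found in 3 of the 6 neighbours and in 3.6% of all genes that have a window.
Slc22a28 (chr19:8131933-8132232, minus strand): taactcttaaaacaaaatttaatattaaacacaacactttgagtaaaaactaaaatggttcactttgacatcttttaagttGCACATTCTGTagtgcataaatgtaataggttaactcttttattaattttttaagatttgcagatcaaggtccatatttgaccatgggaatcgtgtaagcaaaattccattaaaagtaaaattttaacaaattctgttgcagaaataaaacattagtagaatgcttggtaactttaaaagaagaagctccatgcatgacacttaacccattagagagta
Slc22a30 (chr19:8405056-8405355, minus strand): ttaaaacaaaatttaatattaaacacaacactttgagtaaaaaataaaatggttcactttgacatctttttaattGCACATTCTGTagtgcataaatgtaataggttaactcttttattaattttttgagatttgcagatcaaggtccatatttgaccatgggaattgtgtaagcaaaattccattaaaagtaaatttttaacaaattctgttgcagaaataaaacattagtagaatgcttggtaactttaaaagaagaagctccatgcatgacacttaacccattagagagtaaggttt

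Many of these transporters are known to differ between the sexes in mouse kidney, and all animals here were female. Of 8 tested genes with a female bias 4 fell and 1 rose, with a median of -1.47; of 11 with a male bias 3 rose and 2 fell, with a median of 0.34. Slc22a7, an anion carrier with female bias, read 6.47, 7.03, 6.08 and 7.01 in ob/ob and 8.83, 8.04, 9.63 and 8.07 in wild type, and fell by 2.00 on the log2 scale (SE 0.32, adjusted p 0.000899). Hao2, a hydroxyacid oxidase, fell by 1.52 (adjusted p 0.01), and lost its call without replicate 4 of ob/ob or wild-type replicate 3 (highest adjusted p 0.0602) and in the clock-adjusted fit (0.176). Gsta4, a glutathione transferase, fell by 1.42 (adjusted p 0.00276), and Slc22a19 was the fourth. The female-biased gene that rose was Cyp4a14. On the male side Cyp4a12a, Cyp4b1 and Acsm3 rose. Cyp4b1, a cytochrome P450, read 14.76, 15.49, 16.08 and 16.24 against 13.02, 14.61, 13.90 and 14.33, a rise of 1.68 ± 0.36 (adjusted p 0.0109) that ended without ob/ob replicate 3 or 4 or wild-type replicate 1 and in the clock-adjusted fit (adjusted p 0.184). Acsm3, an acyl-CoA synthetase, rose by 0.90 ± 0.19 (adjusted p 0.00923).

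The male-biased genes that fell were Kap and Odc1. Kap, the androgen-regulated protein of the proximal tubule, had the largest fall of all: it read 12.86, 15.96, 10.44 and 15.80 in ob/ob and 18.86, 16.38, 18.37 and 17.64 in wild type. The ob/ob arrays spread over more than 5 units, and replicate 2 came close to wild-type replicate 2. The difference was -4.05 ± 0.88 (adjusted p 0.0117), with 0.0592 without ob/ob replicate 3 and -2.59 (adjusted p 0.246) in the clock-adjusted fit. At 8 and 24 weeks it was -4.60 (adjusted p 0.00608) and -5.11 (adjusted p 0.00031). Odc1, the first enzyme of polyamine synthesis, fell by 0.95 on the log2 scale (SE 0.18, adjusted p 0.00378), with 0.0901 in the clock-adjusted fit. Hdc, which makes histamine from histidine, read 6.09, 6.51, 6.46 and 7.35 against 10.97, 8.30, 11.22 and 11.39. Wild-type replicate 2 stood between the ob/ob group and the other 3 wild-type arrays. The fall was 3.87 on the log2 scale (SE 0.80, adjusted p 0.00789), -2.81 in the clock-adjusted fit (adjusted p 0.165), and the difference was -0.36 at 8 weeks and -3.55 at 24 weeks (adjusted p 0.00253).

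Other leading falls were of a carrier, a lectin, a peroxidase and a WAP-domain protein. Slc22a22, a prostaglandin carrier, read 11.97, 12.26, 10.69 and 9.31 in ob/ob and 14.14, 12.90, 14.29 and 13.70 in wild type, and fell by 2.70 on the log2 scale (adjusted p 0.00368). Clec2h, a C-type lectin, read 11.95, 11.67, 11.60 and 8.99 against 13.74, 12.93, 14.19 and 14.05, and fell by 2.68 (adjusted p 0.00541), with a difference of -1.99 without ob/ob replicate 4. Gpx6, of the glutathione peroxidase family, fell by 2.41 (adjusted p 0.00303). In these 3 genes ob/ob replicate 4 was lowest, and none was called in the clock-adjusted fit (adjusted p 0.0993, 0.116 and 0.059). Wfdc15b, a WAP-domain protein, read 13.95, 13.42, 12.996 and 12.27 against 15.91, 14.72, 15.73 and 15.99. It fell by 2.43 (adjusted p 0.000776), kept its call in all alternatives, and was lower at 8 weeks by the same amount (-2.44, adjusted p 0.00137).

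Both main protein uptake receptors fell as well. Megalin, encoded by Lrp2, and cubilin, encoded by Cubn, take up filtered protein in the proximal tubule. Cubn read 15.47, 15.46, 14.86 and 13.93 in ob/ob and 16.07, 15.80, 16.19 and 15.98 in wild type, and fell by 1.08 on the log2 scale (SE 0.20, adjusted p 0.00428). Lrp2 read 17.14, 17.35, 16.82 and 16.06 against 17.81, 17.76, 18.00 and 17.68, and fell by 0.97 (SE 0.18, adjusted p 0.00432). Both groups were separate with ob/ob replicate 4 lowest, and in the clock-adjusted fit the adjusted p was 0.116 and 0.0817. At 8 weeks the differences were 0.07 and -0.04. These were the 2 of 18 endocytosis and lysosome genes called.

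Of 29 proximal tubule markers 3 rose and 6 fell, with a median of -0.19, and the list mean was 15.08, 15.46, 15.03 and 14.62 in ob/ob against 15.39, 15.04, 15.58 and 15.37 in wild type. The members thus did not move as 1 group: Pck1, Cyp4b1 and the bicarbonate carrier gene Slc4a4 rose, Kap, Cubn, Lrp2, Keg1, Gatm and the inositol oxygenase gene Miox fell, and Slc34a1 (-0.16 ± 0.09, adjusted p 0.452) and Slc5a2 were not called. Keg1, for an acyltransferase-like protein of kidney, read 15.57, 15.73, 14.94 and 14.23 against 16.97, 16.40, 16.91 and 16.55, and fell by 1.59 (adjusted p 0.00464). None of the 9 marker calls was kept in the clock-adjusted fit. Among amino acid genes 1 of 34 rose and 4 fell, with a median of -0.23, and none of the 5 calls was kept in the clock-adjusted fit. Slc6a6, the taurine carrier, read 15.32, 15.73, 15.64 and 15.62 against 14.22, 14.75, 14.64 and 14.68, and rose by 1.01 ± 0.21 (adjusted p 0.00786). Besides Hdc and Odc1 the falls were Slc15a2, a peptide carrier (-1.10, adjusted p 0.0144), and Gatm, the first enzyme of creatine synthesis (-0.78, adjusted p 0.0144). Both calls ended without ob/ob replicate 4 (adjusted p 0.0846 and 0.0783) or wild-type replicate 3.

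In the loop of Henle and distal tubule list 8 of 19 genes fell and none rose, against 1.34% lower over all genes. Negative differences were found in 18, and the median was -0.58. Casr, the calcium-sensing receptor, read 10.14, 10.15, 9.54 and 8.87 in ob/ob and 11.70, 11.24, 11.81 and 11.78 in wild type, and fell by 1.96 on the log2 scale (SE 0.34, adjusted p 0.0023). Egf, the growth factor precursor made in the distal nephron, read 15.57, 16.23, 15.05 and 14.94 against 17.35, 16.81, 17.35 and 17.49, and fell by 1.80 (SE 0.27, adjusted p 0.000511). Umod, for uromodulin, read 18.80, 18.66, 18.14 and 17.90 against 19.60, 19.35, 19.51 and 19.50, and fell by 1.12 (SE 0.20, adjusted p 0.00314). In these 3 the groups were separate, and wild-type replicate 2 was the lowest of its group.

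The other falls were Ptger3, a prostaglandin receptor (-1.59, adjusted p 0.0064), Cldn19 (-1.58, adjusted p 0.00773) and Cldn16 (-1.06, adjusted p 0.0201), tight junction proteins of magnesium and calcium recovery, Slc12a1, the loop's salt carrier (-1.35, adjusted p 0.0322), and Pvalb, parvalbumin of the distal convoluted tubule (-1.18, adjusted p 0.0391). The calls of Slc12a1, Pvalb and Cldn16 ended without ob/ob replicate 3 or 4 or wild-type replicate 3 or 4. Those of Slc12a1 and Pvalb also ended without wild-type replicate 1, and that of Pvalb without ob/ob replicate 2. The highest adjusted p values were 0.144, 0.18 and 0.111. Of the 8 calls Egf alone was kept in the clock-adjusted fit. The list mean was 12.32, 12.46, 11.90 and 11.73 in ob/ob and 12.91, 12.38, 13.01 and 13.24 in wild type, so wild-type replicate 2 lay within the ob/ob range. Whether a smaller share of this segment in the ob/ob preparations set these falls was not tested. Of 17 collecting duct genes none was called; Aqp2, its water channel, read 11.39 in wild-type replicate 2 and 14.27 to 15.90 in the other 7 arrays, and differed by 1.22 ± 0.73 (adjusted p 0.516).

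Among genes of insulin, IGF and leptin action, 3 of 26 fell and none rose, against 1.34% lower and 0.913% higher over all genes, with a median of 0.008. Of the 3 calls that of Socs2 alone was kept in the clock-adjusted fit. Igf1, the growth factor made under growth hormone, read 6.57, 6.28, 6.20 and 5.98 in ob/ob and 7.48, 6.87, 7.08 and 7.02 in wild type, and fell by 0.85 on the log2 scale (SE 0.16, adjusted p 0.00378), with 0.0748 in the clock-adjusted fit. Socs2, a growth hormone target that damps the same signal, read 6.52, 6.38, 6.33 and 6.37 against 7.05, 7.20, 6.92 and 6.72, and fell by 0.57 (SE 0.13, adjusted p 0.0126). Both groups were separate. Igfbp3, a binding protein of IGF, fell by 1.10 (adjusted p 0.022) with overlapping groups, and lost its call without ob/ob replicate 3 or 4 or wild-type replicate 1, 3 or 4 (highest adjusted p 0.114) and in the clock-adjusted fit (0.446).

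A locus of secreted chloride channel regulators rose in all its 3 measured Clca3 members. Clca3a1 read 9.52, 10.57, 9.83 and 10.54 in ob/ob and 7.05, 6.66, 6.84 and 7.05 in wild type. It had the smallest adjusted p of the leading genes, 1.77e-06, with a rise of 3.21 ± 0.30. Clca3a2 read 8.31, 9.14, 8.50 and 9.35 against 6.63, 6.58, 6.25 and 6.89, and rose by 2.24 ± 0.25 (adjusted p 1.45e-05). Clca3b, near background, rose by 0.49 ± 0.08 (adjusted p 0.00198). It was not called in the 8 arrays alone (adjusted p 0.0995). The 3 are close paralogs, so probes may share signal. All were called in the clock-adjusted fit, and Clca3a1 was higher at 4, 8 and 24 weeks by 1.66, 2.29 and 2.85, called at the latter 2 ages (adjusted p 0.000311 and 1.96e-06).

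A pair of aldehyde dehydrogenase genes rose: Aldh1a1, also a parietal epithelial marker, read 10.93, 11.95, 10.95 and 11.001 in ob/ob and 8.68, 9.04, 9.24 and 8.65 in wild type, and rose by 2.30 ± 0.43 (adjusted p 0.00383). Its paralog Aldh1a7 read 10.21, 12.34, 11.15 and 11.63 against 7.72, 8.03, 8.53 and 7.92, and rose by 3.28 ± 0.53 (adjusted p 0.00104). Both held in all alternatives, but near copies may share probe signal. Of 13 parietal markers 2 rose, Aldh1a1 and Krt8, and Scin, an actin-severing protein, fell (-0.85, adjusted p 0.0186), and lost its call without ob/ob replicate 3 or 4 or wild-type replicate 3 or 4 (highest adjusted p 0.0865) and in the clock-adjusted fit (0.248). Among 28 oxidative stress and NRF2 genes 1 rose, Aldh1a7, and 2 fell, Gsta4 and Nox4, a hydrogen peroxide-making oxidase of the tubule (-1.20, adjusted p 0.0171), which overlapped between groups and lost its call without the same 4 arrays (highest adjusted p 0.0846) and in the clock-adjusted fit (0.265).

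Injury and inflammation genes were called in part, beside 2.25% of all genes. Of 15 kidney injury genes 3 rose: Plin2, Krt8, a keratin of simple epithelia (1.18 ± 0.25, adjusted p 0.00951), and Krt20, a keratin of stressed tubule cells, which read 5.64, 6.06, 5.68 and 5.96 against 5.12, 5.03, 5.12 and 5.04 (0.76 ± 0.12, adjusted p 0.0011). The groups of all 3 were separate, although Krt20 lies near background. Havcr1, for KIM-1, the most used marker of proximal tubule injury, was not called and ran the other way: it read 6.28, 7.01, 5.89 and 6.86 in ob/ob and 8.36, 6.99, 8.31 and 7.17 in wild type, -1.20 ± 0.39 (adjusted p 0.127). Lcn2, for NGAL, differed by 0.84 ± 0.28 (adjusted p 0.145). Of 23 cytokine and adhesion genes 3 rose and 1 fell, with a median of 0.21, and none of these 4 calls was kept in the clock-adjusted fit (adjusted p 0.0581 to 0.581). Tnfrsf12a, the receptor of TWEAK, read 7.22, 8.82, 8.18 and 8.94 against 6.56, 7.17, 6.88 and 6.79 and rose by 1.44 ± 0.31 (adjusted p 0.0113), with 0.0654 without ob/ob replicate 4. Icam1, an adhesion receptor for leukocytes, rose by 0.85 ± 0.20 (adjusted p 0.0189), with 0.0982 without that array, and lost its call without replicate 2 of ob/ob or wild-type replicate 1 too. The neutrophil attractant Cxcl1 rose by 0.63 ± 0.17 near background (adjusted p 0.0449) and kept its call only without replicate 1 of ob/ob or wild-type replicate 1 among the fits that left out 1 array (highest adjusted p 0.174). Cxcl12, a chemokine of podocytes and stroma, fell by 1.04 on the log2 scale (adjusted p 0.0478), with 0.195 without ob/ob replicate 4, and its call also ended without replicate 3 of ob/ob or wild-type replicate 1, 3 or 4.

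Immediate early genes, which respond within minutes to stimuli and to tissue handling, rose in 4 of 22 members, against 0.913% of all genes. Their median was 0.23. Fos read 5.52, 6.68, 6.28 and 5.60 in ob/ob and 5.30, 5.40, 5.20 and 5.32 in wild type, 0.71 ± 0.17 (adjusted p 0.0224). Fosl2 (0.52, adjusted p 0.0321), Nr4a3 (0.43, adjusted p 0.0411) and Myc (0.41, adjusted p 0.0405) were the others. Fos and Nr4a3 lie near background. All 4 lost the call without ob/ob replicate 2 or 3 or wild-type replicate 3 or 4, and in the clock-adjusted fit. Fosl2, Nr4a3 and Myc lost it without ob/ob replicate 4 too, and Fos, Fosl2 and Nr4a3 without wild-type replicate 1. The highest adjusted p values were 0.0989 for Fos and 0.203 for Myc. Of 20 interferon genes 1 fell, the GTPase Gbp3 (-0.90, adjusted p 0.0144), and 18 had negative differences. The call of Gbp3 ended without replicate 3 of ob/ob or wild-type replicate 3 (highest adjusted p 0.0762) and in the clock-adjusted fit (0.0978).

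No podocyte gene was called among 29 tested, and the median difference was -0.085. Nphs1 read 10.71, 10.33, 10.80 and 12.06 in ob/ob and 9.83, 12.26, 10.64 and 10.46 in wild type, 0.18 ± 0.56 (adjusted p 0.938). Wt1 read 9.13, 8.64, 9.15 and 9.65 against 8.34, 10.73, 8.93 and 8.91, -0.09 ± 0.45 (adjusted p 0.964). The sign of both differences turned when single arrays were left out, Wt1 to 0.42 without wild-type replicate 2 and Nphs1 to -0.19 without ob/ob replicate 4. The standard errors are about 3 to 4 times the median of 0.137 over all genes, so a difference of moderate size would not have been detectable. At 24 weeks the differences were -2.13 for Nphs1 (adjusted p 0.00708) and -1.94 for Wt1 (adjusted p 0.00294). Among 24 endothelial markers, 21 of them positive, Lpl was the only one called.

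No member was called of the macrophage (19), lymphocyte (11), complement (13), unfolded protein response (21) and mitochondrial respiration (23) lists, whose medians were 0.05, -0.16, 0.14, -0.05 and -0.13. In the respiration list 22 of 23 genes had negative differences, none beyond -0.35. In the adipocyte list Pparg was the 1 of 9 called.

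**Figure D5:**
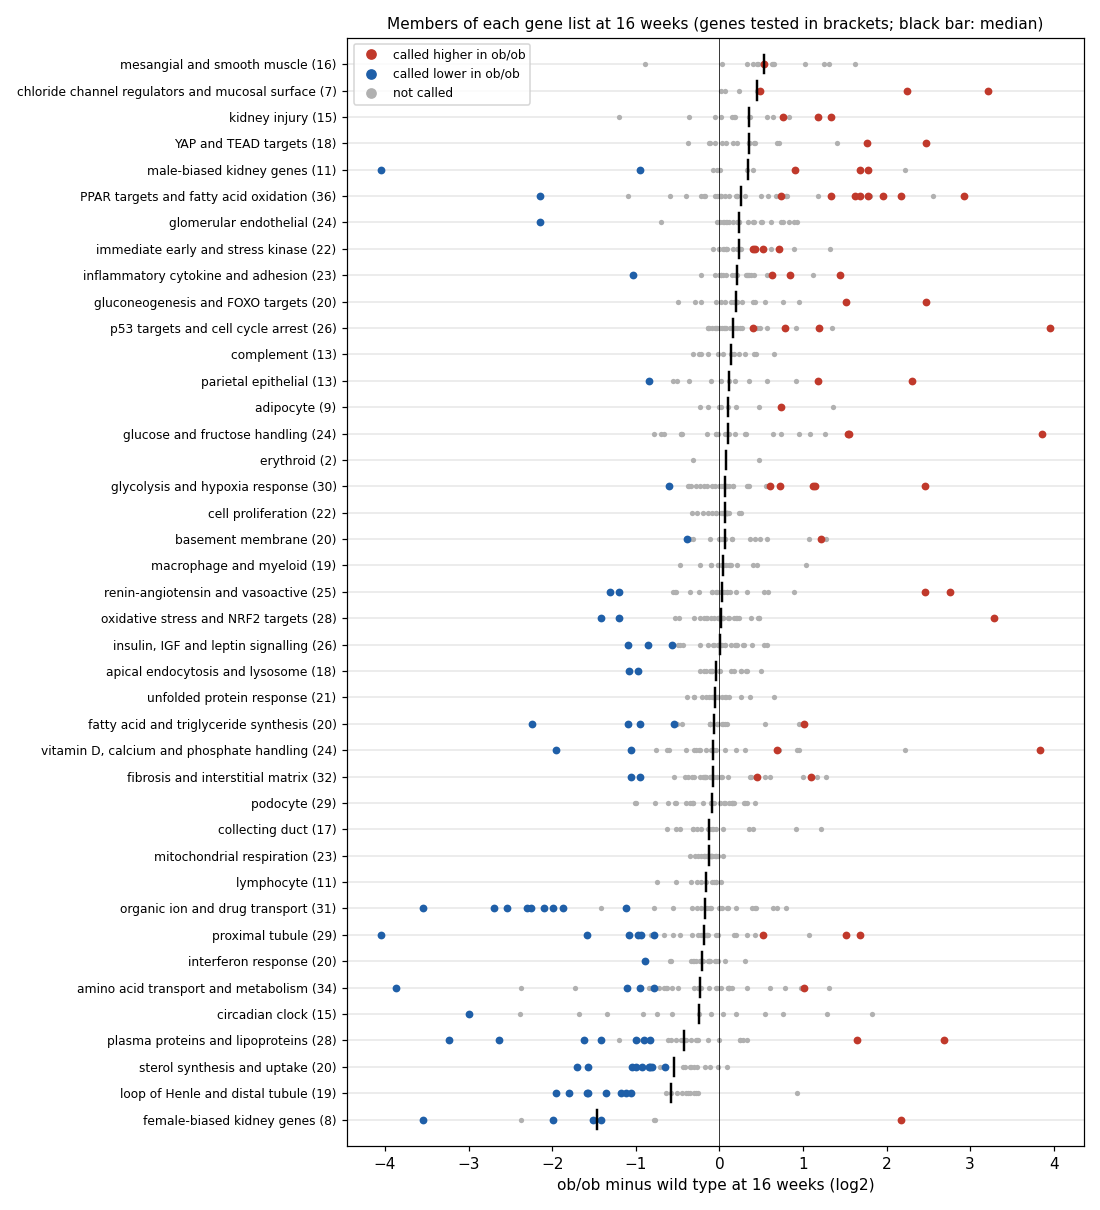
Difference between ob/ob and wild type at 16 weeks (horizontal axis, log2) for the tested members of 41 gene lists, each dot a gene, red where called higher, blue where called lower and grey where not called, with the median as a black bar. Sterol synthesis (median -0.545) and loop of Henle genes (median -0.58) lie to the left, and the podocyte list holds no called gene.

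Whether the genotype difference at 16 weeks departed from that at younger ages was tested for every gene. No gene was called for the change from 8 to 16 weeks (0% of 24099) or from 4 to 16 weeks (0%), with limma at an adjusted p of 0.05. Unadjusted p values under 0.05 numbered 1229 and 1059. The smallest adjusted p was 0.298 and 0.226. With array quality weights 160 and 23 genes were called, and without wild-type replicate 2, 24 and 3. Of the 542 genes called at 16 weeks, 504 had the same sign at 8 weeks and 484 at 4 weeks. The share of same signs over all genes was not counted. At 8 weeks 407 of the 24099 genes were called, 136 of them among the 542. At 4 weeks 1 gene was called, and it was not among the 542. The ages share no arrays. Among the smallest p values of these tests with a named gene, Akr1c20, an aldo-keto reductase, differed by -0.12 at 8 weeks and by -1.94 at 16 weeks (7.10, 7.39, 6.71 and 6.19 against 8.45, 8.31, 9.10 and 9.29; adjusted p 9.33e-05), a change of -1.82 (unadjusted p 2.48e-05). Pigz, a mannosyltransferase of membrane anchors, differed by 0.22 at 4 weeks and 0.87 at 16 weeks (adjusted p 4.16e-06), Dpysl3, a cytoskeletal protein, by 0.04 and 1.25 (adjusted p 0.000286), and Slc25a25 by 0.57 and 2.65. Adgrg2, an adhesion receptor, differed by 0.10 at 8 weeks and 0.76 at 16 weeks (adjusted p 0.00028). The clock gene Nr1d1 was also among them, at 2.26 at 8 weeks and -2.39 at 16 weeks, a change of -4.65 (unadjusted p 0.000337). Zfp691, Rtp3, Nme4, Gpat3 and Arhgap11a were others for the change from 8 weeks, and Lgr5 and Eda2r for that from 4 weeks. None of these changes passed adjustment.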

How the data were processed

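Total RNA of sieved glomeruli was hybridised to Affymetrix transcriptome arrays, 1 animal per array: 4 ob/ob and 4 wild-type mice at 8, 16 and 24 weeks and 3 of each at 4 weeks, per the labels. The authors deposited log2 signals of 72688 probe sets for 30 arrays, made with RMA in Affymetrix Expression Console 1.4, per the submitters' processing notes (further settings: not given in the sources used here). Probe sets with 1 gene symbol were kept, and the tests covered the 24099 genes that reached a log2 value of 5 in 3 or more arrays. The number of arrays limits the precision.

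Differences were tested with limma 3.58.1 in R 4.3.3, over all 30 arrays with 1 group per genotype and age, and p-values were adjusted by Benjamini-Hochberg over all genes tested. The steps were tested on simulated data, where 28, 43, 49 and 50 of 50 genes were called at log2 changes of 0.5, 1, 2 and 3, with 10 false calls. The simulated noise was independent and normal, with the same spread of a gene in every array. It held no clock states, cell mixtures or outlying arrays, so it cannot tell how the fit fares with those. Named genes were the 12 largest called rises and falls with separate groups, the 6 largest called members of each gene list, the 10 smallest p-values of each test of change with age, 13 preset genes, and other list members where a pathway is described. The members and lists were chosen with earlier results of these data known. Alternatives were other filters, scalings, moderation, probe set averaging, array weights, fewer ages, a minimum difference, a replicate block, leaving out each array, and, chosen after seeing the data, 2 covariates. Clock and podocyte covariates were computed from the same arrays.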

Additional observations from a re-analysis of the deposited data

Results flagged for a closer look

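Single arrays far from the other 3 of their group were looked for in 384 groups of 4 arrays, over the named genes and list means. In 33 of them the gap of the outermost array to its neighbour was above Dixon's critical share of the group's range, and chance passes that limit in about 1 in 20 groups. The log2 values follow, with the range of the other 3 arrays in parentheses.

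Ob/ob replicate 1 was the highest of its group for Gsta4 at 11.52 (10.63 to 10.65). It was the lowest of its group for Acot1 at 10.72 (11.11 to 11.12), Pklr at 9.87 (11.14 to 11.36) and Adm at 11.18 (12.41 to 12.44).

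Ob/ob replicate 2 was the highest of its group for Aldh1a1 at 11.95 (10.93 to 11.001), Lpin1 at 10.83 (9.73 to 9.88) and Pfkm at 10.20 (9.69 to 9.77).

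Ob/ob replicate 3 was the lowest of its group for Trf at 7.51 (8.17 to 8.22).

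Ob/ob replicate 4 was the highest of its group for Pparg at 7.95 (6.87 to 6.92), the mean of the glomerular endothelial list at 11.86 (10.95 to 10.96), the mean of the mesangial and smooth muscle list at 10.66 (9.74 to 9.86) and the mean of the adipocyte list at 6.60 (6.14 to 6.21). It was also the highest of its group for the mean of the YAP and TEAD targets list at 9.88 (9.37 to 9.40). It was the lowest of its group for Clec2h at 8.99 (11.60 to 11.95) and Slc34a1 at 18.79 (19.33 to 19.43).

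Wild-type replicate 1 was the highest of its group for Acsm3 at 5.89 (5.67 to 5.69). It was the lowest of its group for Cyp24a1 at 8.82 (10.21 to 10.26) and the mean of the renin-angiotensin and vasoactive list at 9.38 (9.53 to 9.55).

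Wild-type replicate 2 was the highest of its group for Ppp1r3a at 7.39 (6.26 to 6.43), Cp at 10.38 (9.86 to 9.88), Arntl at 11.23 (6.58 to 6.90) and Npas2 at 10.83 (6.57 to 6.95). It was also the highest of its group for Col4a1 at 9.92 (9.04 to 9.09), Col4a3 at 12.67 (11.08 to 11.33) and the mean of the lymphocyte list at 6.06 (5.61 to 5.67). It was the lowest of its group for Hdc at 8.30 (10.97 to 11.39), Pdk1 at 6.99 (7.32 to 7.37), Nr1d1 at 7.92 (11.49 to 11.73) and Per3 at 5.87 (8.16 to 8.45). It was also the lowest of its group for Lepr at 7.0 (7.62 to 7.66).

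Wild-type replicate 3 was the highest of its group for Ace at 10.18 (9.19 to 9.33) and Cish at 7.59 (7.32 to 7.35).

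Wild-type replicate 4 was the highest of its group for Sqle at 9.91 (9.64 to 9.67).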

How the results depend on the processing

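The count of 542 calls was 65 with the 8 arrays of 16 weeks alone (36 higher, 29 lower), 3025 with array quality weights (1190 higher, 1835 lower), 204 at a difference of at least 1 (90 higher, 114 lower), 814 with the podocyte covariate (347 higher) and 204 with the clock covariate (120 higher, 84 lower). Leaving out 1 array gave 243 to 842 calls, 113 to 293 higher and 130 to 549 lower. Calls numbered 507 without a filter, 563 with the stricter filter, 700 without the 24-week arrays, 536 with trend and robust moderation and 543 with averaged probe sets. Cyclic loess scaling gave 352 higher and 414 lower and centred medians 257 and 265, against 220 and 322, and these scalings moved the median of all genes by less than 0.1.

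Same-numbered samples share only a number: their deviations correlated from -0.2 to 0.225, with a median of -0.177. The replicate block gave 353 calls, 160 higher and 193 lower. For the change from 8 to 16 weeks, array weights gave 160 calls and leaving out 1 array 0 to 24. For that from 4 to 16 weeks they gave 23 and 0 to 3, with 1 call without ob/ob replicate 1. The cause of these shifts was not tested.

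Signs turned for 7 named genes, none of them called. Hmgcs1 was -0.06 with array weights. Under the clock covariate Arntl was -0.46, Npas2 -0.834, Col4a3 -0.179, Nphs1 -0.658 and Slc5a2 0.091. That covariate is Arntl minus Dbp, so the fit makes the differences of Arntl and Dbp equal, at -0.46 each. The turned sign of Arntl is thus set by the covariate and is no separate result. Nphs1 was -0.022 with the podocyte covariate, of which it is itself a part. Wt1 was 0.145 with array weights, and Slc5a2 0.051 with cyclic loess and 0.018 with centred medians. Leaving out 1 array gave -0.077 to 0.261 for Hmgcs1, -0.186 to 0.663 for Nphs1, -0.381 to 0.416 for Wt1 and -0.104 to 0.124 for Slc5a2. Of 123 named called genes 20 kept their call in every alternative run, 67 in all 8 fits that left out 1 array, and 37 lost it in 4 or more of those 8. Signal near background and the stretched upper scale limit what small or large differences can show.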

Other observations

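Lists of genes known to be induced by glucocorticoids and by growth hormone were put together after the values had been seen, so their counts are a description. Of 12 glucocorticoid-induced genes 3 were called higher, Cdkn1a, Zbtb16 and Fkbp5, against 0.913% of all genes. All 12 had positive differences, with a median of 0.80 against -0.006 over all genes. Fkbp5, for a chaperone that restrains the glucocorticoid receptor, read 9.16, 9.75, 9.27 and 9.90 in ob/ob replicates 1 to 4 and 7.83, 7.0, 7.24 and 7.97 in wild type. All ob/ob arrays lay above all wild-type arrays, and the difference of 2.01 ± 0.29 had an adjusted p of 0.000284 with limma and was called in each of the 21 alternatives. It was 1.27 at 4 weeks, 0.50 at 8 weeks (adjusted p 0.551) and 2.10 at 24 weeks (adjusted p 3.91e-05). Sgk1, a kinase that raises sodium uptake, read 10.78, 11.14, 11.15 and 11.71 against 9.59, 10.53, 9.82 and 10.30, with separate groups and a difference of 1.14 ± 0.34 that was not called (adjusted p 0.0763).

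Of 7 tested growth hormone and STAT5 targets 5 were called lower and none higher, against 1.34% lower over all genes. Their median was -0.86. Of the 5 calls those of Igfals and Socs2 were kept in the fit with the clock covariate, and none in the 8 arrays alone. Besides Igf1, Igfbp3 and Socs2 these were Igfals and Cish. Igfals, for the protein that carries IGF and IGFBP3 in blood, read 6.33, 6.46, 5.49 and 5.13 in ob/ob and 7.86, 7.91, 8.44 and 7.20 in wild type. The groups were separate, and the fall of 2.00 on the log2 scale (SE 0.32, adjusted p 0.001 with limma) was called in 20 of the 21 alternatives. Cish, a feedback inhibitor of cytokine receptors, read 6.93, 6.55, 6.27 and 6.28 against 7.32, 7.32, 7.59 and 7.35, and fell by 0.89 (SE 0.22, adjusted p 0.0264), a call kept in 12 of the 21.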
